A study of Homo sapiens with 18 samples.

Results

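AluJ copies are the oldest full branch of the Alu family, the most numerous short interspersed repeat of primate genomes. They were taken here as every listed repeat copy whose repeat name begins with AluJ, in both count tables of a study of IMR90 cells, an established line of wildtype human lung fibroblasts. This gave 279362 distinct AluJ copies of 2472685 distinct repeat copies. The table of the 5-fluorouracil (5-FU) experiment lists 270404 of them and the table of the Nutlin experiment 249502, with 240544 in both. In the 5-FU table they carry 4 names: AluJb with 127190 copies, AluJr with 66703, AluJo with 61957 and AluJr4 with 14554.

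An Alu copy is made of a left and a right arm, both descended from the 7SL RNA gene, joined by an A-rich stretch and followed by an A-rich tail. The left arm holds an internal promoter for RNA polymerase III, which in most old copies has gathered many mutations. Many copies lie inside genes, so that a copy can be read as part of a longer RNA polymerase II transcript as well as from its own promoter. AluJ spread first, AluS next and AluY last, so AluJ copies differ most from each other in sequence and a short read can be placed on one of them more readily than on a young AluY copy.

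The study asked how repeat RNA responds to agents that act on the p53 pathway. Nutlin blocks the binding of p53 to MDM2, the protein that marks p53 for degradation, and 5-FU is a pyrimidine analogue that disturbs both thymidylate synthesis and RNA processing. The groups were untreated cells, which received fresh medium 12 h before extraction, cells given 5 µM Nutlin for 6 h, cells given 375 µM 5-FU for 6, 12 or 24 h, and cells given DMSO for the same time and in the volume of each drug treatment. Each group has 2 samples, total RNA was made into stranded libraries, and no group differs in genotype. The labels do not say whether the 2 samples of a group came from separate cultures, so every p-value measures the spread between these samples only, which may be technical. The 2 untreated columns of the Nutlin table hold the same count at every copy, and were counted as 1 sample. By their column labels the untreated samples are shared by both count tables, so the untreated values of the Nutlin table are not an independent repeat.

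Total counts ran from 2412334 (DMSO 12 h, replicate 1) to 6290320 (5-FU 24 h, replicate 2) in the 5-FU table and from 9109885 to 11880265 in the Nutlin table. AluJ copies received 116786 to 322936 counts per library in the first and 156925 to 212722 in the second. Most of these copies are barely counted: 128490 AluJ copies (47.5%) had any count in the 5-FU table over its 14 libraries, and 3804 (1.41%) passed the filter on low counts, holding 61.4% of all AluJ counts. Of those with Nutlin, 2825 (1.13%) passed, with 64.2% of the counts. The tables name no genes and no strand, so transcripts begun at a copy and longer RNAs that run through it cannot be told apart in these counts, nor can fewer cells with a transcript and less of it per cell. How reads that fit several copies were counted is not given in the sources used here, and levels were not compared across the tables.

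Short and middle-sized AluJ copies were counted more densely than full-length ones. In CPM (counts scaled to library size) per kb of listed sequence, the median over the 14 libraries of the 5-FU table was 1.17 (range 0.88 to 1.44) for copies whose end minus start is under 200 bases, 1.06 (0.70 to 1.17) for copies from 200 to under 280 bases and 0.63 (0.43 to 0.69) for 280 bases or more. The ranges of the first and the last class do not overlap. AluS copies showed less of this slope, at 0.80, 0.79 and 0.72 per kb in the same order, and AluY copies lay at 0.63, 0.36 and 0.45. Copies that hold only the left arm stood at 1.30 per kb and those with only the right arm at 1.16, against 0.67 for copies that span both ends. The slope was not the same in each name: the class under 200 bases stood at 1.60 per kb in AluJr, 1.55 in AluJo and 1.39 in AluJr4, but at 0.78 in AluJb, where the middle class was highest at 1.31.

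**Figure D1:**
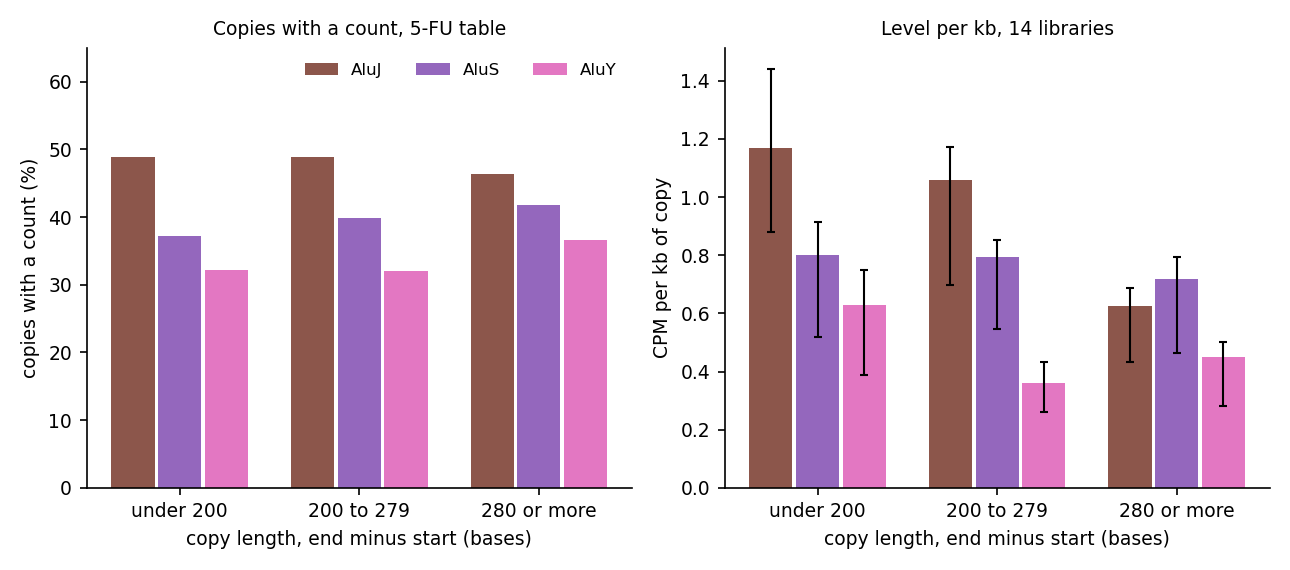
AluJ, AluS and AluY copies of the 5-FU table by length class: share of copies with a count in percent (left) and CPM per kb of copy (right), where bars are medians over the 14 libraries and error bars run from the lowest to the highest library. AluJ copies under 200 bases stand at 1.17 CPM per kb and those of 280 bases or more at 0.63.

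Single copies weigh heavily in these levels. One copy held 26.5% of the counts of AluJo copies under 200 bases, one held 26.7% of AluJr copies under 200 bases, and one held 24.4% of AluJb copies of the middle class. In all, 1125 AluJ copies held 50% of the AluJ counts of the 5-FU table and the top 100 held 23.7%. Chromosome 17 had the highest density, at 1.82 CPM per kb, of which 1 copy gave 30.4%, while chromosome 13 stood at 0.41 and chromosome X at 0.42. The share of copies with any count did not follow the levels: it was 48.9% for AluJ copies under 200 bases, 48.9% for the middle class and 46.4% for 280 bases or more, above AluS (37.1%, 39.8% and 41.8%) and AluY (32.1%, 32.0% and 36.6%) in each class.

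The most abundant AluJ copy was an AluJb at chr17:16344881-16345132 (hg19, as are all positions), which begins at base 37 of its consensus and holds 3.14% of all AluJ counts of the 5-FU table. Untreated cells had 1715 and 1832 CPM of it. The DMSO libraries had 1289 and 1384 after 6 h, 803 and 978 after 12 h and 1497 and 1184 after 24 h, and those with 5-FU 1696 and 1908 after 6 h, 2983 and 2794 after 12 h, then 2066 and 1217 after 24 h. Only the 12 h pairs lie far apart, and only there did the copy rise by the test used for all copies (edgeR's quasi-likelihood test, Benjamini-Hochberg adjustment over every copy tested in the table, called at an adjusted p under 0.05), by 1.70 in log2 with an SE of 0.26 and an adjusted p of 0.000314. In the Nutlin table it went from 608 and 663 CPM with DMSO to 868 and 824 with Nutlin, a difference that was not called (log2 fold change 0.41, edgeR adjusted p = 0.0636).

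The copy next in abundance was an AluJo fragment of the left arm at chr7:100782085-100782182, with 2.06% of AluJ counts and 8.54% of AluJo counts. Untreated cells had 356 and 312 CPM, while the 6 DMSO libraries lay between 611 and 1090 and the 6 libraries with 5-FU between 965 and 2232. The untreated libraries are thus the lowest, and the DMSO libraries together stood 1.31 higher in log2 (edgeR adjusted p = 0.0104). That call was lost with DMSO of 24 h alone (1.03, edgeR adjusted p = 0.153). With only 1 untreated library kept, the difference was 1.41 (without replicate 1) or 1.22 (without replicate 2). These values do not show that the call holds, since 1 library gives no spread within untreated cells. The copy rose further with 5-FU at 12 h (1.07 in log2, edgeR adjusted p = 0.0246) and 24 h (1.22, adjusted p = 0.0215). The third copy, an AluJr right-arm fragment at chr17:40555092-40555246 with 1.88% of AluJ counts, was called only with Nutlin, where it fell from 288 and 299 CPM to 209 and 200 (log2 fold change -0.52; edgeR adjusted p = 0.0244). The top AluJr4 copy, at chr5:115166243-115166513, holds 4.74% of the counts of its name and rose only with 5-FU at 12 h, from 95.0 and 102 CPM to 183 and 152 (log2 fold change 0.77, edgeR adjusted p = 0.0285).

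Ratios within a library do not depend on scaling, and 5 were compared between 5-FU and DMSO. The AluJ to AluY ratio of summed counts was 3.16 and 3.19 with DMSO and 3.0 and 2.93 with 5-FU at 6 h, 3.33 and 3.31 against 3.01 and 2.91 at 12 h, and 3.10 and 3.28 against 3.01 and 3.22 at 24 h. The groups were apart at 6 and 12 h and overlapped at 24 h. Untreated cells had 3.14 and 3.07. Averaged over the 3 times, the log2 ratio was 0.10 lower with 5-FU (mean difference -0.10, two-sided exact permutation test within times, 216 arrangements, p = 0.0185, 0.0463 after adjustment over the 5 ratios; the smallest p this design allows is 0.00926). With Nutlin the ratio went from 2.95 and 2.95 to 2.61 and 2.66, with 3.12 in untreated cells; 2 samples against 2 cannot pass a permutation test.

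The ratio of short AluJ copies (under 200 bases) to long ones (280 or more) moved the other way. It was 0.430 and 0.453 with DMSO and 0.469 and 0.476 with 5-FU at 6 h, 0.490 and 0.505 against 0.531 and 0.530 at 12 h, and 0.437 and 0.426 against 0.526 and 0.433 at 24 h. The means were 0.457 with DMSO and 0.494 with 5-FU (mean log2 difference 0.11, exact permutation p = 0.0185, adjusted p = 0.0463). Untreated cells had 0.412 and 0.419, below every treated library of this table, DMSO included. With Nutlin the ratio was 0.485 and 0.480, against 0.442 and 0.441 with DMSO and 0.414 in untreated cells. Without a single AluJo copy on chromosome 12, described further on, it was 0.443 and 0.438 with Nutlin against 0.440 and 0.439 with DMSO, while the 5-FU difference was then 0.10 in log2 (exact permutation, adjusted p = 0.0463).

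The AluJ to AluS ratio was 0.407 with DMSO and 0.392 with 5-FU on average (mean log2 difference -0.06, exact permutation p = 0.0278, adjusted p = 0.0463). The AluJo to AluJb ratio did not pass with 5-FU (0.02, exact permutation p = 0.481, adjusted p = 0.481), and with Nutlin it was 0.579 and 0.572 against 0.510 and 0.508 with DMSO (0.532 and 0.526 against 0.508 and 0.505 without that AluJo copy). The share of AluJ in counts outside structural RNA did not pass either (mean log2 difference 0.06, exact permutation p = 0.213, adjusted p = 0.266): it was 7.19% and 7.45% with DMSO and 8.46% and 8.59% with 5-FU at 12 h, but 8.68% and 8.29% against 8.43% and 7.76% at 24 h. For the 3 ratios that passed, the call was lost when the most abundant copy of each sum was left out (AluJ to AluS -0.07, AluJ to AluY -0.08, short to long 0.05). With each of the 12 libraries left out in turn the call held in 1 case for AluJ to AluS (without 5-FU 24 h replicate 2) and in 2 for each of the others (without 5-FU 12 h replicate 2 or 5-FU 24 h replicate 2).

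**Figure D2:**
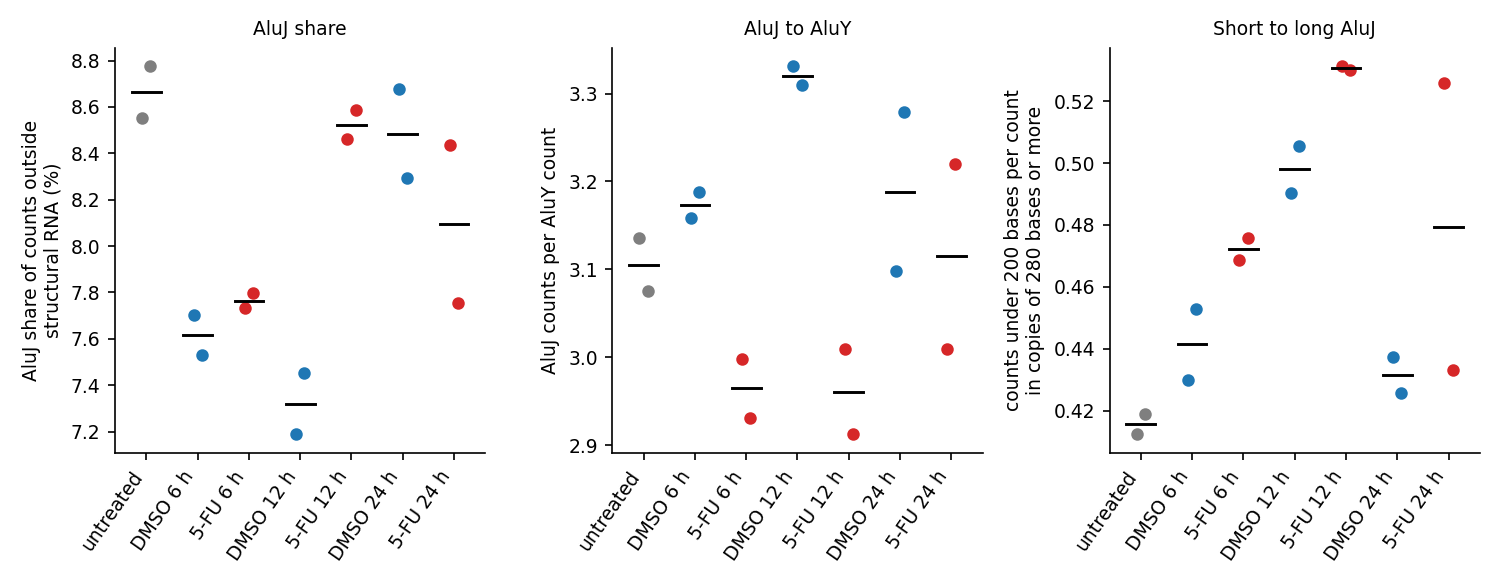
AluJ share of counts outside structural RNA in percent, AluJ to AluY ratio and short to long AluJ ratio in the 14 libraries of the 5-FU table, on linear axes that do not start at 0; points are libraries and black lines group means. The AluJ to AluY ratio is lower with 5-FU than with DMSO at 6 and 12 h and overlaps at 24 h, and the short to long ratio is lowest in untreated cells, at 0.412 and 0.419.

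Summed over all copies of a name, all 4 AluJ names were higher with 5-FU than with DMSO at 12 h, where 33.9% of all repeat names were called in either direction. AluJb stood at 16032 and 16761 CPM with DMSO and 24623 and 25246 with 5-FU (log2 fold change 0.60, SE 0.08, edgeR adjusted p = 0.000125). AluJo rose by 0.54 in log2, AluJr by 0.46 and AluJr4 by 0.33. It is the 2 DMSO 12 h libraries that stand apart: in the other 12 libraries of the table AluJb lay between 22160 and 26242 CPM, 5-FU at 12 h included. Against the DMSO libraries of 6 and 24 h, none of the 4 names was called (AluJb 0.09, AluJr4 -0.09), and with library size alone in place of TMM scaling none was called and 3 of 4 changed sign (AluJb 0.04, AluJo -0.03, AluJr -0.11, AluJr4 -0.24). The rise of whole names at 12 h is therefore reported relative to those 2 libraries and that scaling only.

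No AluJ name was called at 6 h, where 0% of all names were, or at 24 h, where 12.3% were (edgeR; 0 of 4 at an unadjusted p under 0.05 at both times, and 0 by DESeq2). AluJb had 22160 and 22746 CPM with DMSO and 23638 and 25031 with 5-FU at 6 h, and 23518 and 25570 against 26242 and 23376 at 24 h, where the groups overlap. With Nutlin, 12.9% of all names but 0 of 4 AluJ names were called by edgeR. AluJo came nearest, at 4454 and 4501 CPM with DMSO and 5215 and 4813 with Nutlin (log2 fold change 0.16, edgeR adjusted p = 0.127; it was the 1 AluJ name at an unadjusted p under 0.05). Without the AluJo copy on chromosome 12 its difference was 0.05. AluJb differed by -0.01, AluJr by -0.09 and AluJr4 by 0.12. DESeq2 called 1 name, AluJr, lower (-0.16, DESeq2 adjusted p = 0.000488).

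Split by length, the sums of the 4 names give 12 classes. With Nutlin, where 7.56% of all such sums were called, AluJo copies under 200 bases rose (1359 ± 39.9 CPM with DMSO and 1896 ± 157 with Nutlin, SD, n = 2; log2 fold change 0.48 by edgeR) and so did AluJr4 copies of the middle class (252 and 261 CPM with DMSO, 332 and 317 with Nutlin; 0.34). Each of these rises lay largely in 1 copy on chromosome 12. Without those 2 copies, AluJo under 200 bases stood at 1339 ± 39.1 and 1486 ± 135 CPM (SD, n = 2; log2 fold change 0.15, edgeR adjusted p = 0.260) and AluJr4 of the middle class at 250.2 and 259 CPM with DMSO and 272 and 266 with Nutlin (0.08, edgeR adjusted p = 0.714), and none of the 12 sums was called. The AluJr4 call was also lost with library size alone (0.17, edgeR adjusted p = 0.113) and without DMSO replicate 2 (0.37, adjusted p = 0.188). The other 10 were not called. With 5-FU at 12 h, 11 of 12 were called higher, beside 26.2% of all sums in either direction. Only 3 of them stayed above DMSO past the threshold when the DMSO libraries of 6 and 24 h were the control, where 1 other was lower. Library size alone left 0 called higher and 1 lower. The highest were AluJb copies of the middle class (0.80), which hold the most abundant copy, and AluJo copies under 200 bases (0.71), which hold the next. AluJr4 copies of 280 bases or more were the exception (0.19, edgeR adjusted p = 0.0802). At 6 h and 24 h none of the 12 was called (edgeR; 1 at an unadjusted p under 0.05 at each time), beside 0.168% and 7.2% of all sums.

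**Figure D3:**
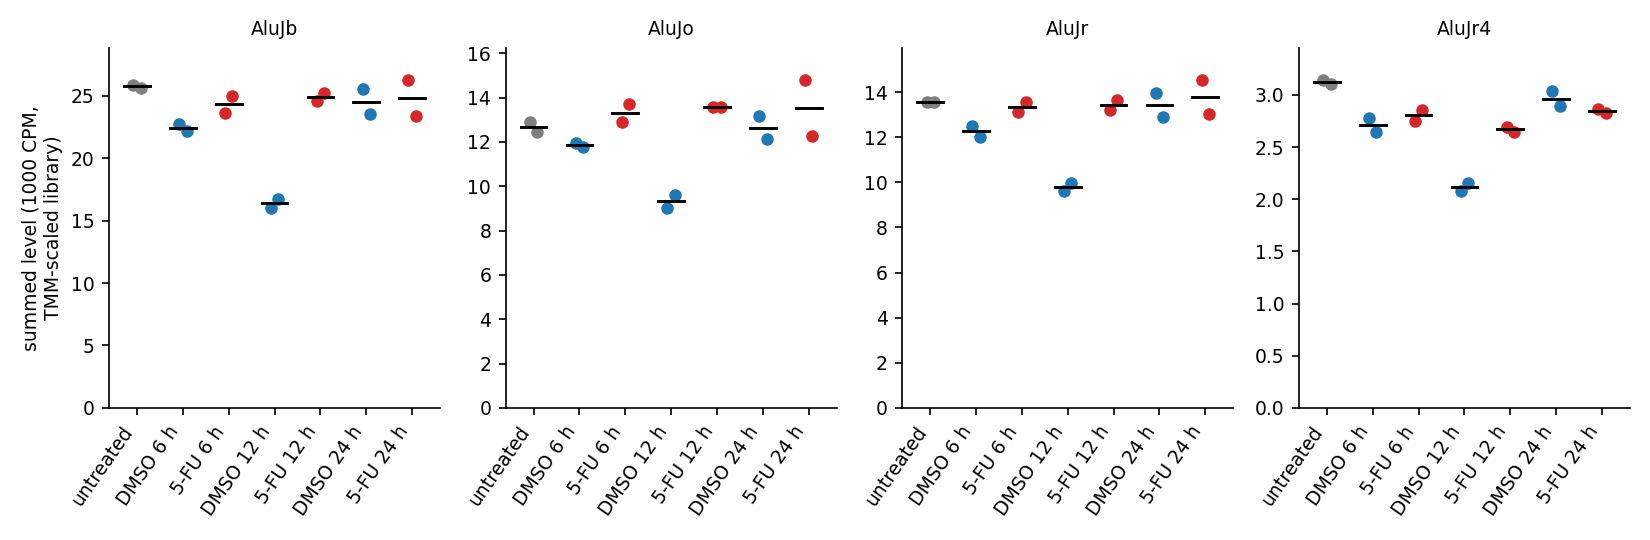
Summed level of the 4 AluJ names in the 14 libraries of the 5-FU table, in units of 1000 CPM after TMM scaling, on linear axes from 0; points are libraries and black lines group means. The 2 libraries given DMSO for 12 h are the lowest for every name, with AluJb at 16032 and 16761 CPM.

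With Nutlin, single AluJ copies changed in both directions. Of the 2825 copies tested, 157 (5.56%) were called, 88 higher and 69 lower, beside 5.43% of all copies tested (3.27% higher and 2.16% lower). The median log2 fold change was 0.00 for AluJ and 0.03 for all copies. The split moved with the scaling: library size alone gave 73 higher and 125 lower. By name, 73 of 1277 AluJb (5.72%), 37 of 626 AluJo (5.91%), 39 of 752 AluJr (5.19%) and 8 of 170 AluJr4 copies (4.71%) were called. From short to long, 30 of 659 (4.55%), 32 of 591 (5.41%) and 95 of 1575 (6.03%) were called, so these classes lay close together.

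A dense group of rises lay in 48.6 kb of chromosome 12. All 11 AluJ copies tested between chr12:69206395 and chr12:69254964 were called higher, by 3.16 to 7.31 in log2. In the DMSO libraries of the Nutlin table, 231 of 246 and 215 of 222 counts lay in 4 of the 11. The fold changes of the others thus rest on few control counts. Summed, these 11 copies stood at 21.0 CPM in untreated cells, 26.2 and 24.2 with DMSO and 583 and 529 with Nutlin. In the 5-FU table the same copies summed to 65.5 and 70.7 CPM in untreated cells and to 45.7 to 66.8 in the 6 DMSO libraries. The 5-FU libraries summed to 246 and 246 CPM after 6 h, to 314 and 325 after 12 h, then to 327 and 259 after 24 h. Every drug-treated library lies above every other library in both tables. Of the 9 copies tested there in the 5-FU table, edgeR called 4 higher at 6 h, 7 at 12 h and 6 at 24 h, and none when the 24 h effect was set against the 6 h effect.

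Most of that signal came from an AluJo left-arm copy of 120 bases at chr12:69235059-69235179. It stood at 20.6 and 19.5 CPM with DMSO and 426 and 394 with Nutlin (log2 fold change 4.35, SE 0.16, edgeR adjusted p = 9.60e-15). The 5-FU libraries had 165 and 181 CPM after 6 h, 236 and 256 after 12 h, then 230 and 153 after 24 h, while the 6 DMSO libraries lay between 33.3 and 49.4. The groups do not overlap at any time, and the copy was called each time (log2 fold change 2.11, 2.60 and 2.21). Longer neighbours moved with it: an AluJr4 copy at chr12:69241663-69241922 went from 1.91 and 2.39 CPM to 60.0 and 51.4 with Nutlin (4.69 in log2), and an AluJo copy at chr12:69240764-69241121 from 1.81 and 1.09 to 46.6 and 37.2 (4.84). The run thus holds copies of different lengths, and AluJb, AluJo and AluJr4 among its names.

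Other runs of 3 or more called copies, each at most 100 kb from the next, were smaller. All 3 AluJ copies tested in 3.68 kb at chr6:36649236-36652916 rose with Nutlin, by 3.68 to 7.04 in log2, and so did all 3 in 1.19 kb at chr22:41603241-41604431 (4.70 to 5.47), none of which passed the filter in the 5-FU table. Summed counts were 4 and 7 with DMSO and 118 and 90 with Nutlin on chromosome 6. On chromosome 22 they were 1 and 6 against 130 and 119. The size of these fold changes thus rests on few control counts. The chromosome 22 copies could pass the filter only through the Nutlin libraries, so that all 3 rose is not a separate result. All 4 in 22.2 kb at chr19:18476148-18498330 rose by 1.19 to 4.63 with Nutlin. The 3 of these 4 that were tested with 5-FU gave 0 calls at 6 h, 1 at 12 h and 0 at 24 h by edgeR. In all, 24 of the 157 called copies lay in 5 such runs and 107 had no other called AluJ copy within that distance. One of the lone copies was an AluJb at chr17:33598767-33599064, which rose from 4.47 and 4.46 CPM to 37.1 and 32.0 (log2 fold change 2.95, edgeR adjusted p = 1.28e-09) and was not called with 5-FU at any time.

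The copy that fell with the smallest p in the Nutlin table was an AluJb at chr22:46726097-46726398. It went from 21.6 and 19.8 CPM with DMSO to 3.26 and 3.08 with Nutlin (log2 fold change -2.70, SE 0.23, edgeR adjusted p = 3.84e-08), and untreated cells had 11.3. In the 5-FU table it was not called at 6 h (17.0 and 14.7 CPM with DMSO, 18.8 and 20.8 with 5-FU) or at 12 h. At 24 h it stood at 30.7 and 32.6 CPM with DMSO and 4.89 and 3.35 with 5-FU (log2 fold change -2.96, edgeR adjusted p = 9.34e-06). Untreated cells of that table had 34.9 and 50.7, so DMSO at 6 and 12 h was itself below untreated. An AluJb copy at chr15:40954876-40955178 went the same way, with a log2 fold change of -1.37 with Nutlin and -2.88 with 5-FU at 24 h. An AluJb copy at chr7:75000740-75001084 was at 4.36 and 2.50 CPM with DMSO and had no count in either Nutlin library. Between group means this is at least 10.7-fold lower when 3 counts per library are taken as the floor.

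**Figure D4:**
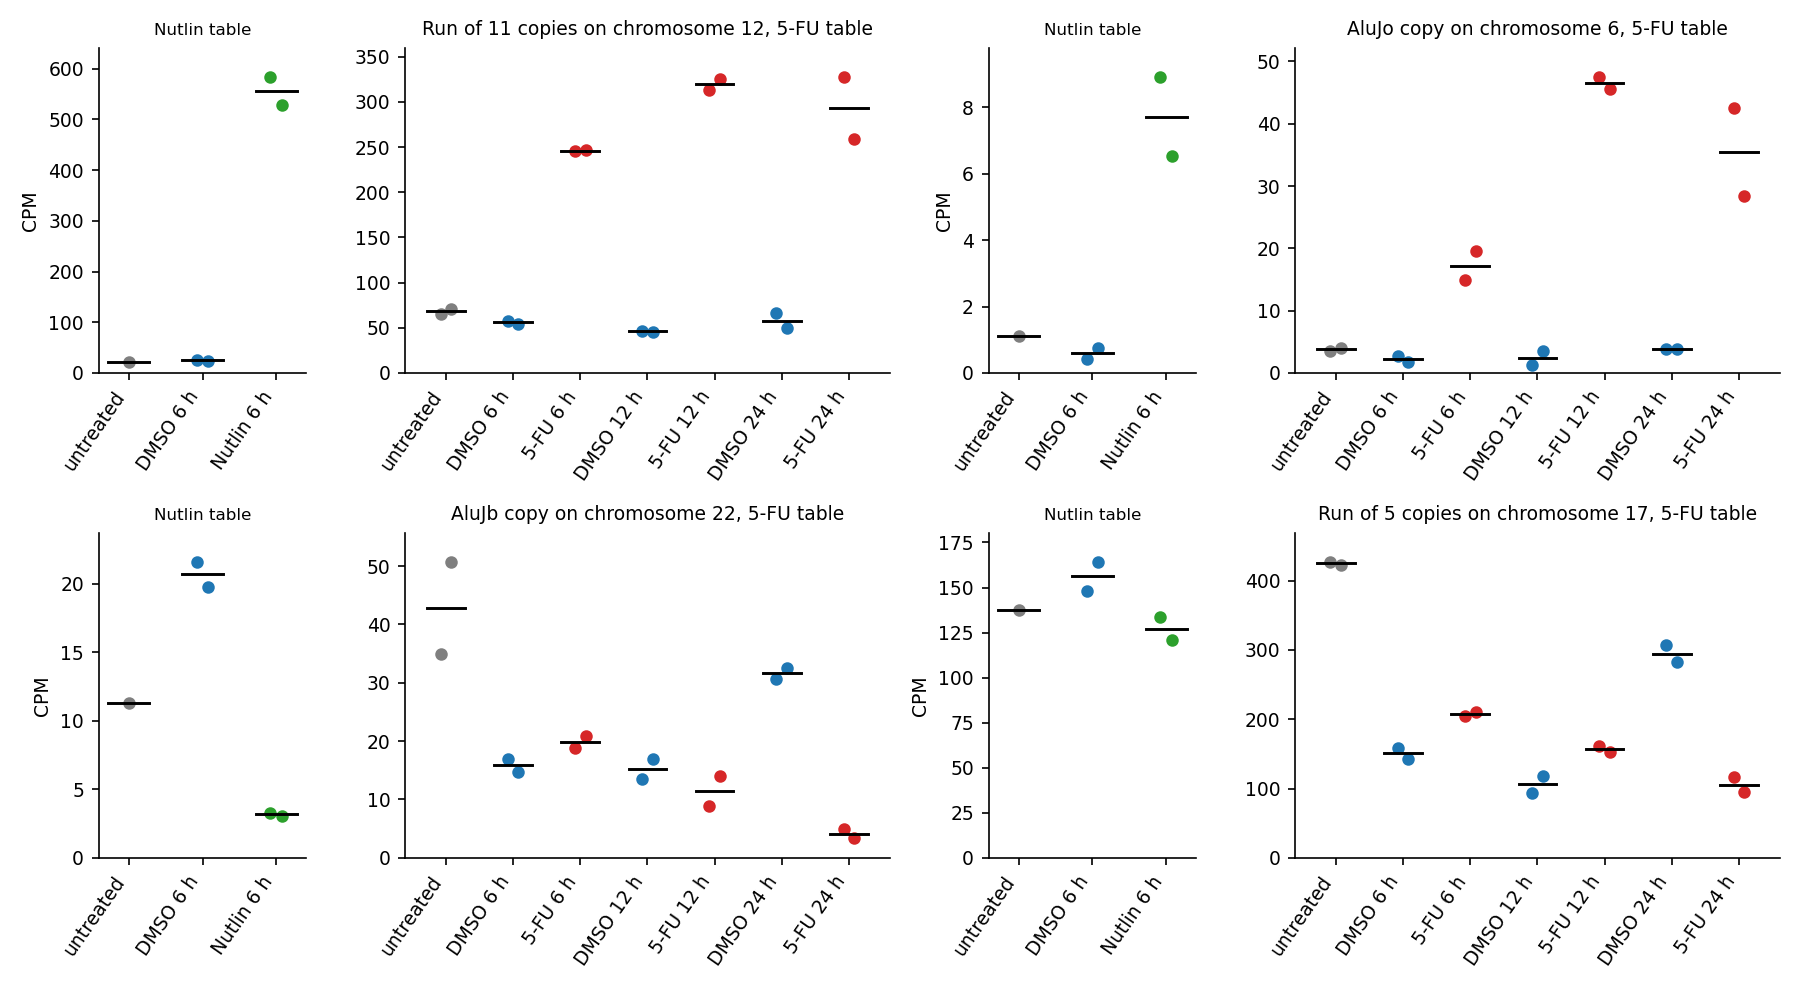
CPM in every library for the run of 11 AluJ copies on chromosome 12, an AluJo copy on chromosome 6, an AluJb copy on chromosome 22 and the run of 5 copies on chromosome 17, with the Nutlin table beside the 5-FU table on axes of their own that start at 0; points are libraries and black lines group means. The chromosome 12 run sums to 583 and 529 CPM with Nutlin against 26.2 and 24.2 with DMSO.

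At 6 h of 5-FU, 6 of 3804 AluJ copies (0.158%) were called, all higher, beside 0.144% of all copies (0.132% higher and 0.0115% lower). These were 4 of the 8 copies tested in the chromosome 12 run between chr12:69209211 and chr12:69241922, an AluJo on chromosome 6 and an AluJb on chromosome 19. All 6 were called higher at 12 and at 24 h too. The AluJb at chr12:69209211-69209518 stood at 1.24 and 1.96 CPM with DMSO and 15.8 and 12.8 with 5-FU (log2 fold change 3.13, edgeR adjusted p = 0.000801). The AluJo at chr6:36652616-36652916, a full-length copy in the chromosome 6 run above, stood at 2.70 and 1.76 CPM with DMSO and 14.9 and 19.6 with 5-FU at 6 h (2.94 in log2), at 1.26 and 3.51 against 47.5 and 45.6 at 12 h (4.27) and at 3.82 and 3.87 against 42.5 and 28.4 at 24 h (3.19). The AluJb at chr19:4500289-4500464 had no count in either DMSO library at 6 h. It had 2.29 and 3.79 CPM after 5-FU, a mean 5.02-fold above the mean of the same floor. Leaving out 1 of the libraries or changing the setting ended that last call in 4 cases.

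At 12 h of 5-FU, 560 of 3804 AluJ copies (14.7%) were called, 497 higher and 63 lower, beside 14.1% of all copies. The higher calls made up 13.1% of AluJ copies tested and 10.4% of all copies, the lower calls 1.66% and 3.67%. The median log2 fold change was 0.60 for AluJ, 0.73 for AluS, 0.79 for AluY and 0.31 for all copies. Relative to the 2 DMSO 12 h libraries, the Alu names as a whole thus stood above all copies, AluJ least. Against the DMSO libraries of 6 and 24 h the median of all copies was -0.04. That control gave 5517 of all copies higher and 3651 lower, in place of 5430 and 1913. The single-copy calls and medians of AluJ are given here against DMSO of 12 h only. Library size alone moved the median of all copies to -0.36 and that of AluJ to -0.03, and gave 177 copies higher and 217 lower. Size factors by the RLE method gave 304 and 127, and DESeq2 249 and 119. Leaving out any of the 4 libraries compared left 160 (without DMSO replicate 1), 207 (without DMSO replicate 2), 234 (without 5-FU replicate 1) or 237 (without 5-FU replicate 2) copies called.

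By name, AluJb had 266 of 1699 copies called at 12 h (15.7%), AluJo 136 of 875 (15.5%), AluJr 131 of 1009 (13.0%) and AluJr4 27 of 221 (12.2%). By length, 14.5%, 12.9% and 15.5% were called from short to long, so the classes lay close together. Some large rises went with low DMSO 12 h libraries. An AluJr at chr7:100774016-100774315 stood at 5.03 and 6.39 CPM with DMSO and 32.7 and 47.3 with 5-FU (2.80 in log2), but the other DMSO libraries lay between 26.6 and 35.9, and against those of 6 and 24 h the difference was 0.35 and not called. An AluJb at chr12:29656739-29657045 likewise went from 3.35 to 0.55 in log2 against the DMSO libraries of 6 and 24 h. The AluJo on chromosome 6 and the chromosome 12 run stood above every DMSO library of the table.

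Runs at 12 h took in 57 of the 560 copies, in 16 places. The largest was again on chromosome 12, with 8 of 11 tested copies called higher. In 2.71 kb at chr5:162872465-162875173 all 3 tested copies rose, by 2.47 to 3.82, and these were at 1.22 to 2.00 with Nutlin without a call. In 63.0 kb at chr1:10517205-10580196 all 4 rose, by 1.06 to 2.13. Among the copies that fell at 12 h, an AluJr at chr10:96368394-96368692 went from 6.92 and 7.03 CPM with DMSO to 1.18 and 0.573 with 5-FU (log2 fold change -2.96, edgeR adjusted p = 0.00127).

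At 24 h of 5-FU, 195 AluJ copies (5.13%) were called, 111 higher and 84 lower, beside 5.25% of all copies (3.33% higher and 1.92% lower). The median log2 fold change was 0.10 for AluJ and 0.11 for all copies. The split was turned by the scaling, with 92 higher and 123 lower by RLE size factors, 78 and 154 by library size alone and 87 and 132 by DESeq2. Without DMSO 24 h replicate 1 there were 82 calls and without replicate 2 there were 70. Without 5-FU 24 h replicate 1 the split was 57 higher and 133 lower, and without 5-FU 24 h replicate 2 it was 173 and 48. The copies that rose with the smallest p were in the chromosome 12 run, on chromosome 6, and an AluJb at chr15:89517958-89518227, which went from 15.3 and 10.3 CPM to 75.3 and 53.7 (log2 fold change 2.34, edgeR adjusted p = 6.70e-05) after 2.77 at 12 h.

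Large falls appeared at 24 h. An AluJr4 fragment at chr19:11256548-11256729 went from 39.3 and 35.1 CPM with DMSO to 4.89 and 3.03 with 5-FU (log2 fold change -3.26, SE 0.29, edgeR adjusted p = 2.05e-06), and an AluJb at chr16:46614659-46614958 from 58.0 and 48.7 to 8.07 and 6.86 (-2.84, SE 0.27, edgeR adjusted p = 3.18e-06). Both were above these DMSO values in untreated cells, at 48.2 and 55.3 CPM and at 69.0 and 59.7. Both were below them with DMSO at 6 h, at 19.3 and 16.3 CPM and at 25.9 and 23.3. In 3.29 kb at chr10:96365401-96368692 all 3 tested copies fell at 24 h, by 3.13 to 3.43 in log2, and the same 3 were lower with Nutlin, by 1.22 to 1.57. Their summed level was 82.5 and 68.5 CPM in untreated cells, 16.0 to 34.5 in the 6 DMSO libraries and 1.22 and 5.10 with 5-FU at 24 h.

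On chromosome 17, all 5 AluJ copies tested in 4.09 kb at chr17:57279652-57283746 fell at 24 h, by 1.42 to 1.55 in log2. Summed, they stood at 427 and 423 CPM in untreated cells. The DMSO libraries had 159 and 143 CPM after 6 h, 94.0 and 118 after 12 h, then 306 and 283 after 24 h. The 5-FU libraries had 205 and 210 after 6 h, 161 and 153 after 12 h, then 116 and 95.3 after 24 h. At 6 and 12 h the 5-FU libraries thus lay above those with DMSO, and at 24 h below them. By edgeR, 0 of the 5 copies were called at 6 h and 2 were called higher at 12 h. The 5 log2 fold changes at 12 h ran from 0.27 to 1.13. Between 12 and 24 h the DMSO level came back towards untreated and the 5-FU level did not. With Nutlin the sum was 134 and 121 CPM against 148 and 164 with DMSO, with 0 of the 5 called by edgeR, also 138 in untreated cells.

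The difference between the 24 h and the 6 h effect of 5-FU was tested as an interaction. It was called at 26 AluJ copies (0.683%), all with the 24 h effect lower, beside 0.454% of all copies (0.0767% higher and 0.378% lower). The shares called were 0.655% for AluS and 0.729% for AluY. They include all 5 copies of the chromosome 17 run, with differences of -2.37 to -1.81 in log2, and 3 of the 4 copies tested at chr15:64651745-64654753, with -3.58 to -3.06. No copy was called with a higher effect at 24 h (edgeR, while DESeq2 called 4 higher and 48 lower).

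DMSO itself went with changes against untreated cells. Averaged over 6, 12 and 24 h, 170 AluJ copies (4.47%) were called, 12 higher (0.315%) and 158 lower (4.15%), beside 3.43% of all copies (0.677% higher and 2.75% lower). The shares called were 4.10% for AluS and 5.32% for AluY. The median was -0.37 in log2 for AluJ and -0.17 for all copies. Of the 4 names, 3 were called lower, beside 11.8% of all names: AluJb (25668 and 25905 CPM untreated, 16032 to 25570 with DMSO; log2 fold change -0.31), AluJr (-0.21) and AluJr4 (-0.28), with AluJo at -0.18 and not called. None was called with DMSO of 6 h alone or of 24 h alone, or with RLE size factors. Without untreated replicate 1 or 2, 31 or 28 copies were called; without DMSO 12 h replicate 1 or 2 there were 107 or 111, and without DMSO 24 h replicate 2 there were 97. The untreated cells had fresh medium 12 h before extraction, so DMSO, the time and the medium cannot be told apart.

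Runs of called copies were found here too. Each run is listed with 1 direction, so a shared direction within a run is not a separate result. The top copy of the class of 280 bases or more, an AluJb at chr3:170150919-170151227, stood at 597 and 653 CPM in untreated cells, and the 6 DMSO libraries lay between 70.4 and 267 with a median of 188 (log2 fold change -1.95, edgeR adjusted p = 5.91e-05). The run at chr17:57279652-57283746 was lower with DMSO at 5 of 5 copies (-1.57 to -1.19) and that at chr10:96365401-96368692 at 3 of 3 (-2.01 to -1.44). In the other direction, 5 of the 7 copies tested between chr7:100770846 and chr7:100782182 were higher with DMSO, by 1.12 to 2.46, among them the abundant AluJo fragment described above.

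Nutlin and 5-FU had separate DMSO samples, and 2485 AluJ copies were tested in both tables. Of these, 139 were called with Nutlin and 154 with 5-FU at 24 h, and 35 with both, which is 25.2% of the first and 22.7% of the second. The direction was the same at 32 of the 35, 10 higher and 22 lower. At 12 h of 5-FU, 450 of the 2485 copies were called and 36 were shared (25.9% of the Nutlin calls and 8.00% of the 450). The direction was the same at 29 of the 36, 24 higher and 5 lower. Copies called in both by coincidence are part of each shared count, more so at 12 h, where more copies were called. Their number was not estimated. All 5 copies called with 5-FU at 6 h that were tested with Nutlin were called higher with Nutlin as well. Within the 5-FU table, 102 copies were called at both 12 and 24 h, which is 18.2% of the first and 52.3% of the second, and 98 of them in the same direction. The matching overlaps over all repeat copies are not given here, so none of these overlaps can be read as particular to AluJ.

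Neighbouring AluJ copies tended to lie on the same side of the median change. Among adjacent tested copies under 1 kb apart, 69.6% of 362 pairs did so with Nutlin, and 60.9%, 69.5% and 74.7% of 478 pairs with 5-FU at 6, 12 and 24 h. At 1 to 10 kb the shares were 65.9% with Nutlin and 58.6%, 64.1% and 65.2% with 5-FU, and at 10 to 100 kb they were 52.4%, 53.4%, 54.6% and 52.5%. Beyond 1 Mb they were 45.7%, 46.6%, 48.7% and 49.0%. As a description, Pearson's r between the log2 fold changes of a pair under 1 kb apart was 0.50 with Nutlin. With 5-FU it was 0.31, 0.53 and 0.48 at 6, 12 and 24 h. For DMSO against untreated r was 0.09 under 1 kb, 0.22 at 1 to 10 kb and 0.21 at 10 to 100 kb. The same-side shares of that comparison were 67.2%, 64.4% and 59.9% in the same order, and 54.2% beyond 1 Mb. Neighbours on the same side are thus not particular to the drugs. The pairs share their libraries and may share a transcript, and a read lying across 2 close copies was not looked for.

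**Figure D5:**
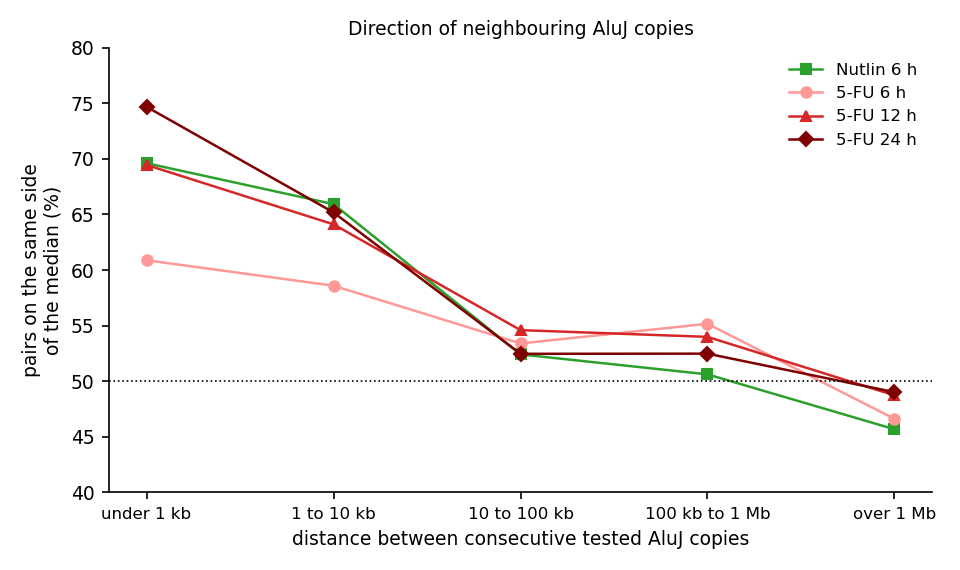
Share of consecutive tested AluJ copies whose log2 fold changes lie on the same side of the median, in percent on an axis from 40 to 80, by the distance between the copies; each line is a comparison and the dotted line marks 50%. With Nutlin the share is 69.6% under 1 kb and 52.4% at 10 to 100 kb.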

How the data were processed

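Each sample's total RNA was sequenced and the authors deposited raw counts per repeat copy, whole numbers with the position in hg19 and the range on the repeat consensus in the row name. Trimmomatic 0.32, cutadapt 1.10, Bowtie2, edgeR and DESeq2 are named, without roles, per the submitters' processing notes; how reads were counted is not given in the sources used here. Members, lists and tests were chosen with earlier results of these data known. Counts were fitted with edgeR 4.0.16 (R 4.3.3; TMM scaling from all copies, filterByExpr, quasi-likelihood test, 1 fit per table, group means), adjusted over every copy, name or name and length sum tested, and called at an adjusted p under 0.05. The fits were tested on simulated data. CPM use the TMM library sizes. Named copies are, per comparison and direction, the 5 of smallest p among called copies whose log2 fold change is at least 1 in size and whose groups do not overlap, and the most abundant copies of each table, name and length class; runs and their members were singled out after their values were seen. Ratios used exact permutation within times (scipy 1.17.1). Alternatives were DESeq2 1.42.0, RLE size factors, library size alone, no filter on low counts, other controls, a replicate block and leaving out each library. Copies could not be placed in genes or shown as sequence, since no hg19 genome or annotation was used here. Floors cover counting error only.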

Additional observations from a re-analysis of the deposited data

Results flagged for a closer look

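The effect of 5-FU at 24 h differed from that at 6 h, by edgeR's interaction term, at 26 AluJ copies. The 5 with the smallest p were an AluJr4 at chr19:11256548-11256729, with a difference of -3.44 in log2, an AluJb at chr16:46614659-46614958 (-3.15), an AluJb at chr22:46726097-46726398 (-3.29), an AluJb at chr8:48890052-48890318 (-2.23) and an AluJb at chr15:40954876-40955178 (-2.82). At each of these the 6 h effect was not called and the 24 h effect was a called fall. At the copies on chr19, chr16 and chr22 the DMSO level was itself higher at 24 h than at 6 h, as given above. Their differences thus draw on the DMSO levels as well as on those with 5-FU. The DMSO levels of the copies on chr8 and chr15 are not given here.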

How the results depend on the processing

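Of the 50 single-copy results, 38 kept their direction and their side of the threshold under every alternative and 12 lost the call in 23 of 685 values, with none reversed. Counts of calls moved more. For single copies, DESeq2 gave 96 calls with Nutlin, 368 with 5-FU at 12 h and 52 for 24 h against 6 h, and no filter on low counts gave 83, 353 and 42, with 25 at 6 h. The 4 libraries of 24 h alone gave 110. For DMSO against untreated, DMSO of 24 h alone gave 17, of 6 h alone 79, RLE size factors 102 and TMM from filtered copies, an alternative chosen after seeing the data, 90. For the 4 names, Nutlin gave 1 lower call by DESeq2 (AluJr), 1 higher with RLE size factors, TMM from filtered copies and the 4 libraries alone (AluJo each time), 2 lower with library size alone and 2 without structural RNA, 1 higher and 1 lower. At 12 h there were 0 against DMSO of 6 and 24 h or with library size alone, and 2 with RLE size factors. For DMSO against untreated there were 0 with DMSO of 24 h alone, of 6 h alone, RLE size factors and TMM from filtered copies, and 1 with library size alone. For the 12 name and length sums, Nutlin gave 4 calls by DESeq2 and 4 by RLE size factors (2 higher and 2 lower each), 8 with library size alone (1 higher, 7 lower) and 5 without structural RNA (2 higher, 3 lower), and 0 without the 2 chromosome 12 copies that rose with the smallest p, an alternative also chosen after seeing the data. At 12 h there were 4 against DMSO of 6 and 24 h (3 higher, 1 lower), 5 by RLE size factors, 7 by TMM from filtered copies, each of these higher, and 1 with library size alone, which was lower.

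With 1 library left out, where a lone sample is assumed to vary like the other groups, single copies called ranged from 124 to 177 with Nutlin, 4 to 6 at 6 h, 160 to 237 at 12 h, 70 to 221 at 24 h, 14 to 65 for 24 h against 6 h (65 without 5-FU 24 h replicate 1, 14 without DMSO 24 h replicate 1, 16 without DMSO 6 h replicate 1) and 28 to 150 for DMSO against untreated. Names ranged from 0 to 1 with Nutlin, 3 to 4 at 12 h and 0 to 3 for DMSO against untreated, and name and length sums from 1 to 6 with Nutlin, 6 to 11 at 12 h and 0 to 2 at 24 h. The AluJb difference with Nutlin ranged from -0.066 to 0.034. In log2, AluJ to AluS ranged from -0.073 to -0.038, AluJ to AluY from -0.12 to -0.083, short to long from 0.065 to 0.16, AluJo to AluJb from 0.0034 to 0.038 and the AluJ share from 0.039 to 0.080.

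Without the most abundant copy of each sum the ratios were -0.069 (AluJ to AluS), -0.081 (AluJ to AluY) and 0.054 (short to long), none past the threshold, and copies with at least 10 counts gave -0.048 for AluJ to AluS, also not past it. Against DMSO of 6 and 24 h, AluJo to AluJb was 0.061 and the AluJ share 0.015. Directions turned under library size alone at 12 h for AluJo (-0.026), AluJr (-0.11), AluJr4 (-0.24), AluJb of 280 bases or more (-0.050) and under 200 (-0.036), AluJo of the middle class (-0.11) and of 280 or more (-0.12), AluJr4 of the middle class (-0.014) and under 200 (-0.19), and AluJr of the middle class (-0.11), of 280 or more (-0.11) and under 200 (-0.11), and with Nutlin for AluJo (-0.012) and AluJr4 (-0.059). They also turned at 12 h against DMSO of 6 and 24 h for AluJr4 (-0.086), AluJb of 280 or more (-0.018), AluJo of 280 or more (-0.027), AluJr4 under 200 (-0.014) and AluJr of 280 or more (-0.048). The cause was not tested. The correlation of same-numbered replicates' deviations was -0.018 with Nutlin, -0.006 at 6 h, -0.016 at 12 h and 0.166 at 24 h; the labels do not say that numbers pair samples, and they were treated as sharing only a number. With the replicate number as a block, 171, 6, 499, 176, 24 and 143 copies were called, in the order Nutlin, 6, 12 and 24 h, 24 against 6 h, and DMSO against untreated. Depth limits all single-copy results, since 1.41% of AluJ copies could be tested with 5-FU and 1.13% with Nutlin.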
